A study of Homo sapiens with 10 samples.

Results

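The 2 control libraries of an RNA editing experiment in the human HUDEP-2 line, immortalised erythroid progenitors, are described here: GFP joined through a 7 aa linker to APOBEC1, and GFP joined through the same linker to the catalytic domain of ADAR (ADARcd). Both constructs were driven by a doxycycline-inducible (TRE) promoter, and each has 1 library. Doxycycline was given for 48 h by the sample labels and for 24 h by the series text, a conflict that was not resolved. The other 8 of the 10 libraries carry FAM46C in place of GFP. No library without a deaminase was used here. A site was a member if it had at least 20 reads in its GFP library, which kept 18633 of 34839 sites: 12823 of 18071 for GFP-APOBEC1 (71.0%) and 5810 of 16768 for GFP-ADARcd (34.6%). The edited share of a site is its edited reads divided by all its reads, in percent. The level of a gene or region is the same quotient after summing reads over its member sites.

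APOBEC1 is a cytidine deaminase that turns C into U, and is best known for editing the apolipoprotein B transcript in the intestine. ADAR enzymes turn A into inosine, which is read as G, and in human cells they act mainly on the double-stranded RNA formed by inverted Alu repeats in introns and 3′ UTRs. GFP has no known RNA targets, so a GFP fusion is used to record the edits that a deaminase places without being brought to a transcript by a bait.

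No position was shared between the 2 deaminases, so genes and regions were compared. Member sites had 628610 reads with GFP-APOBEC1 and 436388 with GFP-ADARcd, at a median of 42 and 58 reads per site. Each deaminase has 5 libraries, and no site was listed without 2 edited reads in 1 of them. A GFP site without an edited read therefore entered through a FAM46C fusion, and such sites made up 50.5% of members for GFP-APOBEC1 and 56.6% for GFP-ADARcd. Under this rule a site with few reads is listed only if its share was high in some library. Just inside the threshold, at 20 to 21 reads, the level was 4.05% over 556 sites with GFP-APOBEC1 and 6.80% over 202 sites with GFP-ADARcd. Just outside it, at 18 to 19 reads, it was 4.12% over 537 sites and 7.42% over 185 sites. Of 17 erythroid marker genes, 8 had member sites with GFP-APOBEC1 and 5 with GFP-ADARcd. Of 32 markers of other blood lineages 2 had member sites, in both libraries: ITGA2B, a platelet integrin at 8.28% with GFP-ADARcd and 0 of 29 reads with GFP-APOBEC1, and TPSAB1, a mast cell tryptase at 17.2% with GFP-APOBEC1 and 9.79% with GFP-ADARcd. The tables list edited positions only, so a gene without sites is not shown to be unexpressed.

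The windows below show sites with edited reads in each GFP library. Each is 21 bases of the annotated transcript, 5′ to 3′, in DNA letters, with the edited base in capitals. They come from GENCODE release 29 transcripts on GRCh38. The first set holds GFP-APOBEC1 sites, namely 3 of its 6 highest shares (among member sites with at least 50 reads) followed by the site with the most edited reads in 3 red cell genes. The sites shown lie in 3′ UTRs.
HPRT1, chrX:134500217, plus strand: ctgttttgtaCtttagaaatg
ST13, chr22:40825850, minus strand: agttggagtaCttagttctct
TOMM20, chr1:235111793, minus strand: aacatagttaCatagttaaac
GYPB, chr4:143996228, minus strand: tttatgcaaaCtggctgcacc
RHAG, chr6:49605259, minus strand: tgcatgttgaCtatttgcaac
HBB, chr11:5225541, minus strand: ctaagtccaaCtactaaactg
The second set holds GFP-ADARcd sites in the same order. COMMD4, EIF2S3 and SLC4A1 sites lie in 3′ UTRs, and TOMM20, ALAS2 and FTL sites in coding sequence.
COMMD4, chr15:75340096, plus strand: ccctggttctAggatgctgag
EIF2S3, chrX:24077208, plus strand: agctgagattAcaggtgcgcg
TOMM20, chr1:235113843, minus strand: cacagcagttActgcaggtct
ALAS2, chrX:55015660, minus strand: tccatgctgtAggactgtatg
FTL, chr19:48966635, plus strand: aagcttatcaAgaagatgggt
SLC4A1, chr17:44249856, minus strand: gatttgaaccAggccttctga

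Each of the 6 APOBEC1 windows has an A just before the edited C, and 4 of the 6 ADARcd windows have a T just before the edited A. Over all exonic sites with the base that the enzyme edits, A preceded the C at 63.5% of 12432 GFP-APOBEC1 sites. T preceded the A at 24.1% of 5086 GFP-ADARcd sites, behind A (28.9%) and C (25.3%). At GFP-APOBEC1 sites with a share of at least 5% on 2 or more edited reads, A preceded the edited C at 77.4% of 2493 sites (95% Wilson interval 75.7 to 79.0). It preceded the C at 51.6% of 6247 sites without an edited GFP read, and 23.4% of all C within 100 bases of the sites. The base before differed between regions. In 3′ UTRs, A stood before the C at 86.2% of 2013 sites of at least 5% and at 69.4% of 3533 without an edited read. In coding sequence the shares were 40.1% of 431 and 28.9% of 2502. At GFP-ADARcd sites of at least 5%, T preceded the edited A at 41.8% of 1016 sites, against 15.2% of sites without an edited GFP read and 14.0% of all A nearby. The first 2 groups differ in region, as 2374 of the 2967 sites without an edited read were coding. Within 3′ UTRs the shares were 43.9% of 626 sites and 31.2% of 426 without an edited read. In coding sequence they were 39.2% of 337 and 12.2% of 2374. Over all regions, G preceded the edited A at 8.07% of the 1016 sites, against 28.2% of all A nearby. G followed the edited A at 51.9%, against 30.8% nearby. These shares describe sites that share transcripts and libraries.

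Most member sites lay in 3′ UTRs for GFP-APOBEC1 and in coding sequence for GFP-ADARcd, and both had higher levels in 3′ UTRs than in coding sequence. Members include the sites without an edited GFP read, and among sites with at least 2 edited GFP reads 3′ UTRs held the larger share for both enzymes: 76.7% against 19.6% in coding sequence for GFP-APOBEC1, and 46.9% against 36.0% for GFP-ADARcd. With GFP-APOBEC1, 67.6% of sites (66.8 to 68.4) lay in 3′ UTRs and 28.2% in coding sequence. With GFP-ADARcd, 28.1% lay in 3′ UTRs and 59.3% in coding sequence. The GFP-APOBEC1 level was 3.04% (2.99 to 3.10) in 3′ UTRs and 1.25% (1.20 to 1.30) in coding sequence. The GFP-ADARcd level was 4.72% (4.60 to 4.85) in 3′ UTRs, 4.49% in introns, 4.94% in intergenic positions and 1.01% (0.972 to 1.04) in coding sequence. Over all regions the levels were 2.49% and 2.13%, an order that turned to 5.46% and 6.74% at sites with at least 2 edited GFP reads and to 2.52% and 2.77% as means of site shares. Most coding sites of GFP-ADARcd had few edited reads: 22.2% of them had 2 or more, against 60.8% of its 3′ UTR sites. When only sites with at least 2 edited GFP reads were kept, the 3′ UTR and coding levels came closer, at 5.69% and 4.86% for GFP-APOBEC1 and 7.43% and 5.63% for GFP-ADARcd, so the coding level was then the higher with GFP-ADARcd.

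Sites of both enzymes in 3′ UTRs were less edited close to the annotated transcript end. Under 100 nt from the end the level was 2.06% (1.94 to 2.19) for GFP-APOBEC1 over 1015 sites and 0.971% (0.659 to 1.43) for GFP-ADARcd over 43 sites. At 1000 nt or more it was 3.35% over 3306 sites and 5.01% over 916 sites. GFP-ADARcd sites lay farther from the end, at a median of 1226 nt, against 602 nt for GFP-APOBEC1. The low GFP-ADARcd value near the end rests on few sites. When sites high in every library were kept it was 2.65%, above the GFP-APOBEC1 value of 2.12%. For GFP-APOBEC1 the difference shrank to 5.59% against 5.79% when only sites with at least 2 edited GFP reads were kept.

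GFP-ADARcd sites in 3′ UTRs often lay near an Alu-type sequence. The motif searched was CTGGGATTACAG or its reverse complement CTGTAATCCCAG, a stretch of the Alu consensus and the commonest 12-base word in annotated 3′ UTRs among words with at least 2 of each letter. It was searched in the 201 bases around each site where the annotated transcript has the base that the enzyme edits. It was present at 367 of 1587 GFP-ADARcd 3′ UTR sites (23.1%, 21.1 to 25.3). It was present at 39 of 8625 GFP-APOBEC1 3′ UTR sites (0.452%). Of 158078 windows of the same length tiling the longest annotated 3′ UTR of each of 19684 genes, 3.11% held it. In coding sequence the counts were 1 of 3216 for GFP-ADARcd and 1 of 3481 for GFP-APOBEC1. The level at GFP-ADARcd 3′ UTR sites with the motif was 5.06% (4.76 to 5.38), and 4.76% (4.62 to 4.91) without it, so the intervals overlap. SAMD5 had the most such sites with 2 or more edited reads, 13, with 70 of 599 reads edited (11.7%). ATM, the DNA damage kinase, had 8 at 10.9%.

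Many edited sites in 3′ UTRs had another edited site nearby. Among GFP-APOBEC1 3′ UTR sites with 2 or more edited reads, 45.3% had another such site within 50 nt, against 31.9% for GFP-ADARcd. In coding sequence the shares were 4.40% and 2.89%. The 3′ UTR sites were 3555 in 1317 genes for GFP-APOBEC1 and 990 in 551 for GFP-ADARcd. The coding sites were 910 in 763 genes and 761 in 664. Closeness was not corrected for the number of sites per gene, so these shares do not compare spacing between enzymes or regions. Genes with at least 5 such 3′ UTR sites numbered 210 of the 1317 for GFP-APOBEC1 and 42 of the 551 for GFP-ADARcd. In predicted minimum free energy structures of 201-base windows, 33.6% of GFP-ADARcd sites of at least 5% had the edited A paired (30.7 to 36.6), against 43.5% of all A within 30 bases of them. For GFP-APOBEC1 these shares were 50.8% and 53.9%. Pairing with a repeat outside the window is not represented in these structures.

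A gene was called edited if it had at least 50 reads at member sites, a level of at least 5% and at least 5 edited reads. With GFP-APOBEC1, 185 of 2657 genes met this rule (6.96%), and with GFP-ADARcd 211 of 2323 (9.08%). With only sites of at least 2 edited GFP reads the counts were 404 of 1222 genes and 286 of 811. The order of the counts thus turned, while the share called stayed higher with GFP-ADARcd. The median gene level was 1.68% with GFP-APOBEC1 and 0 with GFP-ADARcd, where 51.7% of genes had no edited read. High levels were more often seen with GFP-ADARcd: 66 genes reached 10%, against 13 with GFP-APOBEC1. Sites in more than 1 gene made up 16.2% and 17.6% of members, and strand is not stated in the labels, so a gene, its antisense partner and a gene it overlaps cannot be told apart.

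A few red cell genes met the rule in each library. Of 35 genes of the red cell membrane and skeleton, 17 had enough reads with GFP-APOBEC1 and 3 met the rule (17.6%, beside 6.96% of all genes), and 13 had enough with GFP-ADARcd and 1 met it (7.69%, beside 9.08%). None of these 4 genes had a member site in the other library, so they cannot be compared between the enzymes. With GFP-APOBEC1 these were GYPB, a glycophorin, DMTN, the spectrin and actin binding protein dematin, and RHAG, the Rh-associated glycoprotein. RHAG had 20 of 373 reads edited (5.36%, 3.50 to 8.14), all at neighbouring 3′ UTR sites with 9 of 120 and 11 of 172 reads. GYPB had 23 of 173 (13.3%), 20 of them among 43 reads at 1 site, but every GYPB site also lay in a second gene and the glycophorins are near-identical, so its assignment is uncertain. DMTN had 11 of 190 reads edited (5.79%). With GFP-ADARcd the gene that met the rule was SLC4A1, the band 3 anion exchanger, with 18 of 219 reads edited (8.22%, 5.26 to 12.6), all 18 among 140 reads at a 3′ UTR site 1471 nt from the end. Its coding site had 0 of 79. The median over the measured genes of the list was 1.90% for GFP-APOBEC1 and 0.246% for GFP-ADARcd.

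Of the heme synthesis genes 1 of 6 measured met the rule with GFP-ADARcd, and of the iron genes 2 of 3, beside 9.08% of all genes. With GFP-APOBEC1 0 of 11 met it in each list, beside 6.96% of all genes. ALAS2, the erythroid enzyme that starts heme synthesis, had 4 coding sites with GFP-ADARcd, at 31 of 222, 31 of 206, 0 of 247 and 0 of 155 edited reads. Its edits thus fell at 2 of the 4 sites, in exons 9 and 8 of 11. Its level was 7.47% (5.87 to 9.46), against 1 of 150 reads (0.667%) with GFP-APOBEC1 (Fisher's exact test between the libraries, adjusted p = 0.0077). FTL, the ferritin light chain, had 33 of 241 reads edited (13.7%, 9.92 to 18.6) at 1 coding site with GFP-ADARcd. With GFP-APOBEC1, FTL had 0 of 90 reads edited, which allows a share of up to 3.33%, at sites 26 and 37 nt from the end (adjusted p = 0.00068, Fisher's exact test). These 2 GFP-APOBEC1 sites were listed only through edited reads in a FAM46C fusion. IREB2, an iron-sensing RNA-binding protein, had 6 of 105 reads edited with GFP-ADARcd (5.71%) and 2 of 113 with GFP-APOBEC1, a difference that did not pass (adjusted p = 0.39, Fisher's exact test). Among iron genes measured with GFP-APOBEC1, NCOA4, the ferritin autophagy receptor, had 13 of 552 reads edited (2.36%).

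Globin transcripts, which encode the chains of hemoglobin, had few member sites. HBB, the adult beta globin, had 3 GFP-APOBEC1 sites, all in the 3′ UTR within 77 nt of the end, with 6 of 263, 10 of 305 and 22 of 308 reads edited. Its level of 4.34% (3.18 to 5.90) was under the rule. The gamma globins are near-identical, and their reads cannot be assigned with certainty: HBG2 had 4 of 185 edited reads (2.16%) and HBG1 had 0 of 304, which allows up to 0.987%. HBD had 0 of 84 and HBM 1 of 65. With GFP-ADARcd the only globin member was 1 HBZ site with 3 of 21 reads edited. No erythroid transcription factor met the rule, of 5 measured in each library; MYB, a regulator of progenitor growth, had 6 of 193 reads edited with GFP-APOBEC1 (3.11%).

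Among genes of other pathways, the splicing factors were the list with the most genes called for GFP-APOBEC1: 10 of 34 measured HNRNP and SR genes (29.4%, beside 6.96% of all genes), with a median of 3.58% beside 1.68%. SRSF1 had 22 of 196 reads edited (11.2%), at 1 site that also lies in a second gene. HNRNPR had 58 of 675 (8.59%), at 9 sites in the last 474 nt of its 3′ UTR, with shares from 0 to 17.6%. HNRNPDL had 36 of 464 (7.76%) and U2AF2, which recognises the polypyrimidine tract, 40 of 549 (7.29%). Of the 6 U2AF2 sites, 5 also lie in another gene. With GFP-ADARcd, 1 of 10 measured genes of the list met the rule, HNRNPA3 at 5.07%. SYNCRIP, a known cofactor of APOBEC1, had 37 of 662 reads edited with GFP-APOBEC1 (5.59%), all at sites that also lie in a second gene.

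Ribosomal protein genes were the list of at least 10 measured genes with the most called for GFP-ADARcd: 8 of 11 (72.7%, beside 9.08% of all genes), with a median of 7.84%. With GFP-APOBEC1, 3 of 21 were called (14.3%), with a median of 3.03%. RPS3A had 33 of 224 reads edited at 1 coding site (14.7%) and RPSA 12 of 129 at 1 coding site (9.30%). RPL37A had 35 of 347 edited over 14 sites in its annotated 3′ UTR (10.1%), and 7 of these with 2 or more edited reads had the Alu motif nearby. In the same library RPL27A had 20 of 255 edited over 7 annotated 3′ UTR sites (7.84%). These genes have many processed pseudogenes and near-identical copies, so how their reads were assigned is uncertain.

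Genes listed as endogenous ADAR targets were called with GFP-ADARcd in 6 of 18 measured cases (33.3%, beside 9.08% of all genes) and with GFP-APOBEC1 in 0 of 13 (beside 6.96%). PAICS, an enzyme of purine synthesis, had 70 of 428 reads edited with GFP-ADARcd (16.4%), 68 of them among 223 reads at 1 site. Its GFP-APOBEC1 level was 2.77%, over 14 sites (adjusted p = 1.4e-15, Fisher's exact test). NDUFS1, a complex I subunit, had 49 of 530 edited over 20 3′ UTR sites (9.25%), of which 12 also lie in another gene. MDM4, a p53 inhibitor, had 18 of 182 (9.89%). APOBEC3C, itself a cytidine deaminase, had 141 of 1445 reads edited in the GFP-ADARcd library over 10 3′ UTR sites (9.76%), all of which also lie in a second gene. Editing by the cells' own ADAR and by GFP-ADARcd cannot be told apart at these sites. The same holds for every other GFP-ADARcd site named here, as no library without a deaminase was used.

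The genes of highest level in each library (at least 100 reads and at least 2 sites with 2 or more edited reads) differed in where their edits lay. With GFP-APOBEC1 the first was CA2, a red cell carbonic anhydrase, with 34 of 172 and 11 of 118 reads edited at a pair of 3′ UTR sites (15.5%, 11.8 to 20.1). HPRT1, the purine salvage enzyme, had 85 of 899 edited over 13 3′ UTR sites (9.45%, 7.71 to 11.5), 35 of them at the site shown above. QKI, an RNA-binding protein, had 30 of 311 over 10 3′ UTR sites (9.65%), each with a share between 5.56% and 18.2%. BNIP2 was at 13.5%, LAPTM4B at 10.6%, TMEM189-UBE2V1 at 10.2% on sites shared with a second gene, RBM3 at 9.51%, RPS23 at 9.46% and RB1 at 9.26%. Of the 6 BNIP2 sites, 5 also lie in another gene.

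With GFP-ADARcd the highest was MCM4, a subunit of the replicative helicase, with 139 of 462 reads edited (30.1%, 26.1 to 34.4). Its 3′ UTR site on chromosome 8 at position 47977549 had 111 of 225. In the 4 FAM46C-ADARcd libraries that site ranged from 3.77% to 22.6%. CHD3, a chromatin remodeller, was at 18.8% on 144 reads, TRMT2B at 15.3%, of which 22 of 34 edited reads fell at 1 site with 29 reads, SH3GLB2 at 13.3%, API5 at 11.6%, NMRAL1 at 11.1% over 10 intronic sites and DDX6 at 11.04%. The API5 sites also lie in another gene. EEF1A1P5 was at 13.7%, but it is a pseudogene close to the translation factor EEF1A1 and its reads are uncertain.

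Single sites reached 47.3% with GFP-APOBEC1 (HPRT1, 35 of 74 reads) and, at 50 or more reads, 49.3% with GFP-ADARcd (MCM4). At fewer reads the highest GFP-ADARcd share was 75.9%, in TRMT2B. Such sites were rare: 34 GFP-APOBEC1 and 78 GFP-ADARcd sites had a share of at least 20%, and 96.6% and 93.9% of members were under 10%. The HPRT1 site ranged from 16.2% to 43.6% in the 4 FAM46C-APOBEC1 libraries. The ST13 site, in a cochaperone of HSP70, had 28 of 67 reads with GFP (41.8%) and 17.5% to 38.3% with FAM46C. The COMMD4 site had 75 of 165 (45.5%) with GFP and 16.7% to 65.4% with FAM46C. These sites were picked for a high share with GFP, so their standing against the FAM46C libraries is a description only.

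Genes with sites in both files numbered 1636, which is 43.4% of the 3770 genes with GFP-APOBEC1 members and 52.04% of the 3144 with GFP-ADARcd members. Of them, 1082 had at least 50 reads in both. GFP-APOBEC1 called 47 of these (4.34%) and GFP-ADARcd 97 (8.96%), and 9 met the rule in both (0.832%). Those 9 are 19.1% of the GFP-APOBEC1 list, beside 8.96% of all 1082 genes called with GFP-ADARcd. They are 9.28% of the GFP-ADARcd list, beside 4.34% of all 1082 called with GFP-APOBEC1. Whether this overlap exceeds these shares was not tested. In the 70 genes with at least 5 edited reads in both libraries, most edited reads lay in the 3′ UTR for both enzymes in 43 (61.4%). In 17 (24.3%) they lay in the 3′ UTR for GFP-APOBEC1 and in coding sequence for GFP-ADARcd.

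TOMM20, a receptor of mitochondrial protein import, belonged to the second kind. It had 84 of 1451 reads edited with GFP-APOBEC1 (5.79%, 4.70 to 7.11) over 22 3′ UTR sites, and 76 of 215 with GFP-ADARcd (35.3%, 29.3 to 41.9) at 1 site in coding exon 4 of 5. It was the only one of the 9 genes whose libraries differed (adjusted p = 4.4e-28, Fisher's exact test). RPS23 was at 9.46% with GFP-APOBEC1 and 13.8% with GFP-ADARcd, in a long annotated 3′ UTR. EIF4EBP2, a repressor of cap-dependent translation, was at 8.97% and 6.72%. GSR, glutathione reductase, was at 7.74% and 6.77%. OSBPL8, a lipid transfer protein, was at 5.46% over 15 sites and 12.7% at 1 site (adjusted p = 0.059, Fisher's exact test). CD2AP was at 5.77% and 6.76%, the noncoding RNA FGD5-AS1 at 8.89% and 5.73%, and the ribosome export adaptor NMD3 at 5.66% and 5.61%. Each of these rests on 5 to 28 edited reads per library. TPSAB1 was the last of the 9, and its GFP-APOBEC1 level came from a coding site with 63 of 199 reads, which had 27.4% to 32.0% in the FAM46C libraries. The gene has a near-identical copy, so a base that differs between copies cannot be told apart from an edit.

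Fisher's exact test on edited and unedited reads, two-sided and adjusted over the 1082 genes with Benjamini-Hochberg, found 110 genes (10.2%) that differed between the 2 libraries: 60 higher with GFP-APOBEC1 (5.55%) and 50 higher with GFP-ADARcd (4.62%). It compares 2 libraries with different sites, and has no replicate check. The 60 had a median of 7 GFP-APOBEC1 sites, in none of them did 1 site hold 80% of the edited reads, and 57 had no edited read with GFP-ADARcd. The GFP-ADARcd sites of those 57 were listed only through edited reads in a FAM46C fusion. With only sites of at least 2 edited GFP reads 154 genes could be tested, and 1 was higher with GFP-APOBEC1 and 18 with GFP-ADARcd. With at least 50 reads per site the counts were 21 and 33 of 628 genes. HMGN5, a nucleosome-binding protein, had 64 of 1176 reads edited over 26 sites (5.44%), against 0 of 398, which allows up to 0.754% (adjusted p = 5.5e-07, Fisher's exact test). CHP1 had 20 of 581 (3.44%) against 0 of 688, and UBE2E3, a ubiquitin-conjugating enzyme, 17 of 526 (3.23%) against 0 of 630. GMFB had the highest share, 8 of 51 reads, against 0 of 176. Elongation factors of mitochondria were among the named genes too, with GFM1 at 18 of 448 against 0 of 369 and GUF1 at 7 of 295 against 0 of 991. EPS15, an endocytic adaptor, had 11 of 351 against 0 of 589.

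Of the 50 genes higher with GFP-ADARcd, 35 had at least 80% of their edited reads at 1 site. No edited read was seen with GFP-APOBEC1 in 15 of the 50. The GFP-APOBEC1 sites of those 15 were listed only through edited reads in a FAM46C fusion. These 50 had a median of only 2 GFP-ADARcd sites, against 7 GFP-APOBEC1 sites for the 60. With so few sites, 1 site easily holds most edited reads, so the 2 groups cannot be compared in this respect. EIF2S3, the gamma subunit of the initiation factor that carries the first tRNA, had 91 of 231 reads edited at 1 3′ UTR site and 0 at its other, an intronic site. Its level was 34.0% (28.5 to 39.8), against 36 of 1223 (2.94%) over 19 GFP-APOBEC1 sites (adjusted p = 3.5e-42, Fisher's exact test). CCNI, an atypical cyclin, had 64 of 219 edited at a coding site (29.2%), against 60 of 1630 over 23 3′ UTR sites (3.68%, adjusted p = 8.9e-28, Fisher's exact test). MCM4 had 2 of 353 reads edited with GFP-APOBEC1 (adjusted p = 1.9e-33, Fisher's exact test). In the endoplasmic reticulum translocon and chaperone list, 3 of 14 genes measured in both libraries were higher with GFP-ADARcd (beside 4.62% of all genes) and 0 with GFP-APOBEC1 (beside 5.55%). SSR3, a subunit of the translocon-associated complex, had 38 of 405 against 0 of 127, and STT3A, of the oligosaccharyltransferase, 7 of 127 against 0 of 197. The third, RPN2, of the same enzyme, had 15 of 345 against 11 of 1123. BNIP3L, the mitophagy receptor of maturing red cells, went the other way, with 44 of 1664 reads edited with GFP-APOBEC1 and 0 of 256 with GFP-ADARcd (adjusted p = 0.033, Fisher's exact test). FP236383.1 and FP671120.1, unnamed loci, were higher with GFP-ADARcd and hold intronic sites in near-identical copies, so they are uncertain.

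Some sites were high in every library of a deaminase and were left out of all levels above: 12 members for GFP-APOBEC1 and 19 for GFP-ADARcd, with a pooled share of at least 30% and no library under 20%. A genomic variant, a base from a near-identical copy and constant editing cannot be told apart there. STMN1, a microtubule regulator, had 101 of 212 reads with GFP-APOBEC1 (47.6%), and the fusions ranged from 35.8% to 52.6%. H3F3A, a histone H3.3 gene, had 95 of 199 (47.7%) and CA1, a red cell carbonic anhydrase, 119 of 272 (43.8%). The gamma globin site at chromosome 11, position 5253222, is listed more than once, lies in both gamma globin genes and had 20 of 56 reads after merging (35.7%). With GFP-ADARcd the sites in PGR (24 of 24 reads) and ACSBG1 (36 of 36) were at 100% in every library with 20 reads, and SSR2 had 20 of 70 (28.6%).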

How the data were processed

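Poly(A) RNA of 2 GFP libraries was used. Per the submitters' processing notes, HISAT2 2.2.1, SAMtools 1.18, Picard 2.27.1 and GRCh38 were used, with no role or order given. The sources used here give no rule by which the authors chose sites. The authors deposited, per library, counts of reads with the reference and the edited base at each site, not normalised. The counts summed to 677010 reads for GFP-APOBEC1 and 479108 for GFP-ADARcd. No site had more than 308 reads, so depth at strongly expressed genes is limited.

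Sites were placed in GENCODE release 29 basic transcripts, preferring transcripts with the target base and then protein-coding ones, and 1 gene per site. Distances run along the spliced transcript. The base at an exonic site was the target of the deaminase at 98.4% of GFP-APOBEC1 and 94.7% of GFP-ADARcd members. Intervals are 95% Wilson intervals, and a share of 0 is given with the limit that 3 counts allow. Both cover only counting error, and reads without molecular identifiers need not be separate molecules. With 1 library per construct there is no spread between replicates. Genes were compared with Fisher's exact test (SciPy 1.17.1, Python 3.11.15, pandas 2.3.3), and structures predicted with ViennaRNA 2.7.2. The code of the test was run on simulated reads with a single share per gene and library. That leaves out differences between sites, so it does not give the rate of false calls in these data.

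Named genes were, per enzyme, the 10 of highest level among called genes with at least 100 reads and 2 sites with 2 edited reads, the genes called with both, the 8 of lowest adjusted p in each direction, and up to 4 with the most reads in each of 18 lists (670 entries). Some genes that this rule names are not reported here. Every called member of a list was tabulated too, and those named were chosen after their values were seen. The same holds for SAMD5, ATM, HBM, HBZ and RPN2 where the rule does not name them, and for the red cell sites whose windows are shown. The members and lists were chosen with earlier results of these data known. Alternatives changed the read minimum, the site filters, the level rule and the averaging.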

Additional observations from a re-analysis of the deposited data

How the results depend on the processing

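No paired analysis was possible because each construct has 1 library and no replicate. The order of the 2 libraries turned for the level over all regions, the coding level, the number of genes called and the number of genes differing in each direction with only sites of at least 2 edited GFP reads, for the first also as means of site shares (2.52% against 2.77%) and for the last also at 50 reads per site. It turned for the level under 100 nt with sites high in every library kept. The share of genes called kept its order with only sites of at least 2 edited GFP reads, at 404 of 1222 against 286 of 811. The order of 3′ UTR and coding shares of GFP-ADARcd sites turned with only sites of at least 2 edited GFP reads. With at least 10 reads per site, the levels over all regions were 2.62% (GFP-APOBEC1) and 2.44% (GFP-ADARcd), the 3′ UTR levels 3.18% and 5.07%, the coding levels 1.38% and 1.05%, the levels at 1000 nt or more from the end 3.54% and 5.55%, the GFP-ADARcd level under 100 nt 1.59% and its share of coding sites 51.97%. With at least 50 reads, the levels over all regions were 2.45% and 1.73%, the coding levels 0.944% and 0.841%, the levels under 100 nt 2.33% and 0.626% and at 1000 nt or more 3.19% and 4.39%, and the GFP-ADARcd 3′ UTR level 4.35%. The 3′ UTR then held 69.1% and 22.8% of sites and coding sequence 26.5% and 69.4%, and A or T preceded the edited C at 84.0%. The genes called were 98 of 1794 and 134 of 2078. Of 628 genes measured in both libraries, 2 were called in both, and 21 and 33 differed by Fisher's exact test. With sites high in every library kept, the levels over all regions were 2.59% and 2.22%, the 3′ UTR levels 3.16% and 4.91% and the GFP-ADARcd level under 100 nt 2.65%.

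With only sites of at least 2 edited GFP reads, which removes every site at 0, the levels over all regions were 5.46% and 6.74%, the 3′ UTR levels 5.69% and 7.43%, the coding levels 4.86% and 5.63%, the levels under 100 nt 5.59% and 3.38% and at 1000 nt or more 5.79% and 7.46%. The 3′ UTR held 76.7% and 46.9% of sites and coding sequence 19.6% and 36.0%, and A or T preceded the edited base at 89.4% and 66.4%. GFP-APOBEC1 called 404 of 1222 genes and GFP-ADARcd 286 of 811. Of the 154 genes then measured in both libraries, 37 were called with both, and 1 and 18 differed. With target-base sites only, the GFP-APOBEC1 level over all regions was 2.54% and its 3′ UTR share of sites 69.4%, and GFP-ADARcd had 31.2% of sites in 3′ UTRs, 63.2% in coding sequence and a coding level of 1.05%. At a gene level of 10%, 13 and 66 genes were called and 0 with both. As means of site shares, the GFP-APOBEC1 coding level was 1.42%, and the GFP-ADARcd levels were 2.77% over all regions, 5.18% in 3′ UTRs and 1.31% in coding sequence.

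Of 82 values for the differences of named genes, 79 stayed on the same side of the threshold, and EPS15 and GFM1 were among the 3 that lost the call at 50 reads per site. Of 1101 levels of named genes, 82 moved beyond their interval.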
